A study of Mus musculus with 48 samples.

Results

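The replication-dependent histone genes of the mouse were followed through 48 total-RNA libraries of 8 cultured breast tumour lines and of neutrophils and macrophages sorted from 4 tumours. The set was every row of the deposited count table whose symbol begins with Hist1h, Hist2h, Hist3h or Hist4h, which gave 68 of 24054 rows. It held 6 genes for the linker histone H1, 18 for H2A, 19 for H2B, 12 for H3 and 13 for H4. The Hist1 cluster on chromosome 13 contributed 54 genes, the Hist2 cluster on chromosome 3 contributed 10, the Hist3 cluster on chromosome 11 contributed 3, and Hist4h4 stood alone on chromosome 6. The annotation lists 67 of them as protein-coding and Hist3h2bb-ps as a pseudogene.

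These genes supply the bulk of the histones that package newly copied DNA, and they are transcribed mainly in S phase. Their messages are unusual: they have no introns and no poly(A) tail, and end in a short stem-loop that the protein Slbp binds and that the U7 particle and its partners use to cut the transcript. Replacement histones such as H2afz and H3f3b come instead from ordinary genes with polyadenylated messages that are made outside S phase too, so a library made from total RNA can read both kinds of message.

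The 16 groups held 3 libraries each. BALB/C is the strain label of the lines T11, 2208L, 67NR and 4T1, and C57BL/6 that of E0771, AT3, PyMT-M and PyMT-N; no treatment is given for any of them. E0771 was grown in RPMI medium and the other lines in DMEM with high glucose, all with 10% serum and antibiotics. Neutrophils (CD45+ CD11b+ Ly6G+ with medium to low Ly6C) and macrophages (CD45+ CD11b+ F4/80+ without Ly6G or Ly6C) were sorted alive from dissociated T11, 2208L, E0771 and AT3 tumours. For E0771, the libraries numbered 1 of neutrophils and of macrophages carry the label BALB/C while numbers 2 and 3 carry C57BL/6. For sorted cells the labels quote the names of the table columns, in which the numbers match between macrophages and neutrophils of a tumour, but they do not say what a number marks. They name no separate cultures or animals for the 3 libraries of a group, so each p-value rests on the spread among libraries alone, and that spread may be technical. RNA came from a miniprep column for lines and a microprep column for sorted cells. The library protocol cited is that of Sheng and colleagues, the total-RNA method MATQ-seq, whose primers are not limited to poly(A) tails.

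Libraries held 669862 to 6262942 counts, and neutrophil libraries were the shallowest, with a median of 1524663. Summed macrophage markers lay between 2618 and 9192 CPM (counts scaled to an equal library total) in macrophages, 137 and 1903 CPM in neutrophils, and 18.6 and 38.0 CPM in lines. Summed neutrophil markers lay between 630 and 11525 CPM in neutrophils, 19.2 and 176 CPM in macrophages, and 10.7 and 44.0 CPM in lines. The pre-ribosomal transcript Rn45s took up to 14.9% of counts in a line library (lowest 3.88%), while neutrophils ranged over 26.8 to 70.3% and macrophages over 55.0 to 76.2%. As a measure of stray signal, 1447 olfactory and vomeronasal receptor genes averaged 0.293 CPM per kilobase in lines, 0.736 in neutrophils and 0.242 in macrophages. At 10 times that level or more stood 27 of the 68 histone genes in lines, 16 in neutrophils and 48 in macrophages, by mean CPM per kilobase of RefSeq length. With GENCODE lengths, which the receptor genes have, these were 20, 15 and 46.

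The stem-loop is printed first for genes whose levels carry the results below, with 5 bases on either side in lower case. Capitals mark the stem-loop itself, 16 bases in which the first 6 pair with the last 6 around a loop of 4. The sequences were read from GENCODE M21 transcripts (build GRCm38) and lie in the 3′ untranslated region.
Hist1h1e: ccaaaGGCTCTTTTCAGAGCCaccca
Hist1h1c: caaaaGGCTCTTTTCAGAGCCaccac
Hist1h2ae: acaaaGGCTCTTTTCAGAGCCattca
Hist1h2bg: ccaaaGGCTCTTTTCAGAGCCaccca
Hist1h4d: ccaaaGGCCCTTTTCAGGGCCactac
Hist1h4c: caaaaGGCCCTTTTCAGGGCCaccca
Hist2h4: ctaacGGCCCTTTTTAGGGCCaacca
Hist4h4: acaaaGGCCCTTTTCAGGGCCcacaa

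A stem-loop of this kind (a stem of 6 that opens with GG and closes with CC, fully paired, and a loop that opens with TTT, on the transcript's strand) was found in 44 of the 68 transcript models, against 24 of 21834 other protein-coding genes (0.110%). It began 22 to 59 bases after the stop codon, with a median of 32. The form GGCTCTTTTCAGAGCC was the most common, in 26 genes of classes H1, H2A, H2B and H3. The forms that open with GGCCC or GGTCC, 11 genes in all, were found in H4 genes and in no other class. Of the 24 genes without a match, 8 have a modelled 3′ untranslated region of at least 16 bases, among them Hist1h2bc and Hist2h2be, for which longer polyadenylated messages are known. Of these 8, Hist2h3b and Hist1h1a have regions of 37 and 48 bases, which may end before a stem-loop. Of the rest, the pseudogene Hist3h2bb-ps has no modelled coding sequence and was not searched. The remaining models end too soon to hold a stem-loop. In 22 genes the model ran at least 100 bases past the stem-loop.

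Near-identical copies limit what a single gene's count means. All 8 genes with 0 counts in the 48 libraries (Hist1h2ao, Hist1h2ap, Hist1h2bq, Hist1h2br, Hist1h4m, Hist2h2aa1, Hist2h3c1 and Hist2h3c2) had 63.5 to 100% of their stretches of 50 bases in common with transcripts of other genes. The median was 46.4% over the genes with counts. Hist2h2aa2 had 5 counts in all. How reads that fit several places were counted is not given in the sources used here, so levels of genes with many shared stretches are uncertain: Hist1h3i shared 87.6% and Hist1h2ak 57.0%, while Hist2h4 shared 1.01%, Hist4h4 8.52%, Hist1h1c 8.54% and Hist1h4d 10.2%. These shares were taken over whole GENCODE models. Past the stem-loop the models ran 1257 bases in Hist2h4, 2445 in Hist4h4, 840 in Hist1h1c and 770 in Hist1h4d. Those of Hist1h3i and Hist1h2ak held no 3′ untranslated region, so the shares are not on an equal footing. Shares over the part up to the stem-loop were not computed and may be higher. A low share therefore does not show that a gene's count is secure. Hist1h1b and Hist2h2be shared none. Hist2h2bb shared all of its stretches with overlapping gene models.

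The summed level of the 68 genes was lowest in the dividing lines and highest in macrophages. It was 82.0 CPM at the lowest, 134 at the median and 207 at the highest in the 24 line libraries. In the 12 neutrophil libraries these values were 125, 403 and 627 CPM, and in the 12 macrophage libraries 471, 744 and 1279 CPM. No macrophage library overlapped with a line library; 3 neutrophil libraries, all of T11, lay within the range of the lines, and 1 AT3 and 1 E0771 neutrophil library lay above the lowest macrophage library along with 1 of 2208L. As a plain share of counts other than Rn45s, with no scaling factor, the 68 genes took 0.0101 to 0.0223% in lines. Neutrophils held 0.0526 to 0.163% and macrophages 0.0982 to 0.259%, and on that scale the T11 neutrophils too stood above every line. In bulk libraries, fewer cells that make a message and less of it per cell cannot be told apart.

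**Figure D1:**
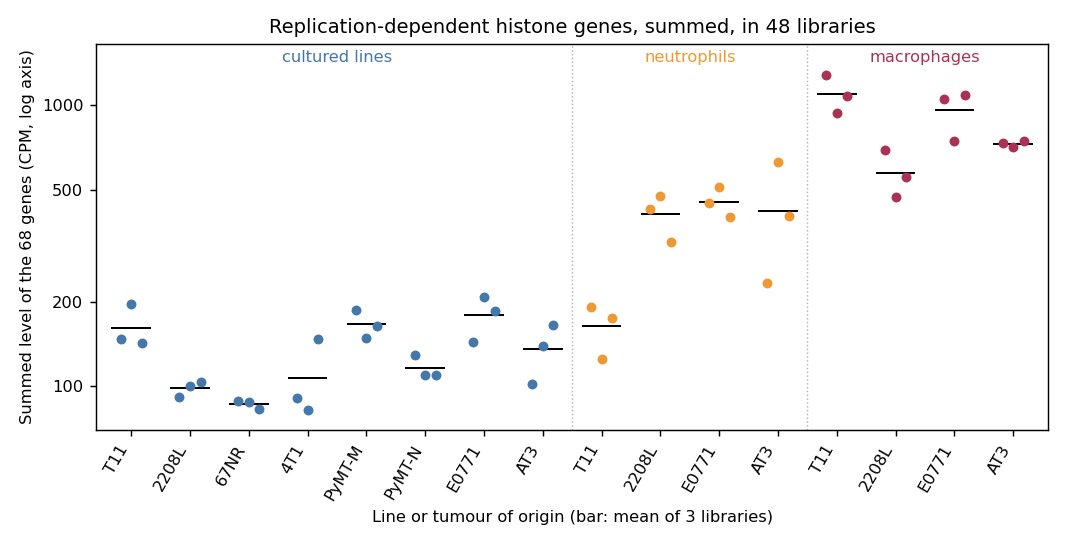
Summed level of the 68 genes (CPM on a log axis) in each library, by line or tumour of origin; points are libraries and bars the mean of 3. Macrophages lie between 471 and 1279 CPM, all above the highest line library at 207 CPM, while T11 neutrophils lie at 125 to 191 CPM among the lines.

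Within each tumour model the macrophages exceeded the matching line, on the CPM scale by a like factor. The mean summed level was 1099 ± 170.5 CPM in T11 macrophages, 573 ± 112 in 2208L, 962 ± 189 in E0771 and 729 ± 17.8 in AT3 (SD, n = 3 libraries each). It was 162 ± 29.6 CPM in the T11 line, 98.4 ± 6.10 in 2208L, 179 ± 32.01 in E0771 and 136 ± 31.9 in AT3. The ratio of macrophages to line was 6.80 in T11, 5.82 in 2208L, 5.38 in E0771 and 5.37 in AT3. The mean in neutrophils was 164 ± 34.8 CPM in T11, 409.7 ± 76.2 in 2208L, 453 ± 55.1 in E0771 and 421 ± 197 in AT3. This gave ratios of neutrophils to line of 1.01, 4.16, 2.54 and 3.10 in the same order. The ratios depend on the scale. As mean shares of counts other than Rn45s, in that order, neutrophils held 0.0643, 0.0999, 0.151 and 0.111%. The lines held 0.0194, 0.0111, 0.0205 and 0.0170%, and macrophages 0.193, 0.116, 0.229 and 0.118%.

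The mix of classes differed too. H4 messages made up 12.2 to 22.7% of the summed level in lines, with a median of 18.6%, against 28.4 to 49.4% in macrophages and 21.7 to 40.9% in neutrophils, with medians of 35.1% and 36.7%. H2A messages went the other way, with medians of 19.6% in lines, 10.8% in macrophages and 10.8% in neutrophils. In macrophages, 5 genes (Hist1h1e, Hist1h4d, Hist1h4c, Hist2h4 and Hist1h1c) made up 51.5% of the mean summed level. In lines, 5 partly different genes (Hist1h1b, Hist1h2bc, Hist1h2ae, Hist1h1c and Hist1h2be) led and made up 32.4%.

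**Figure D2:**
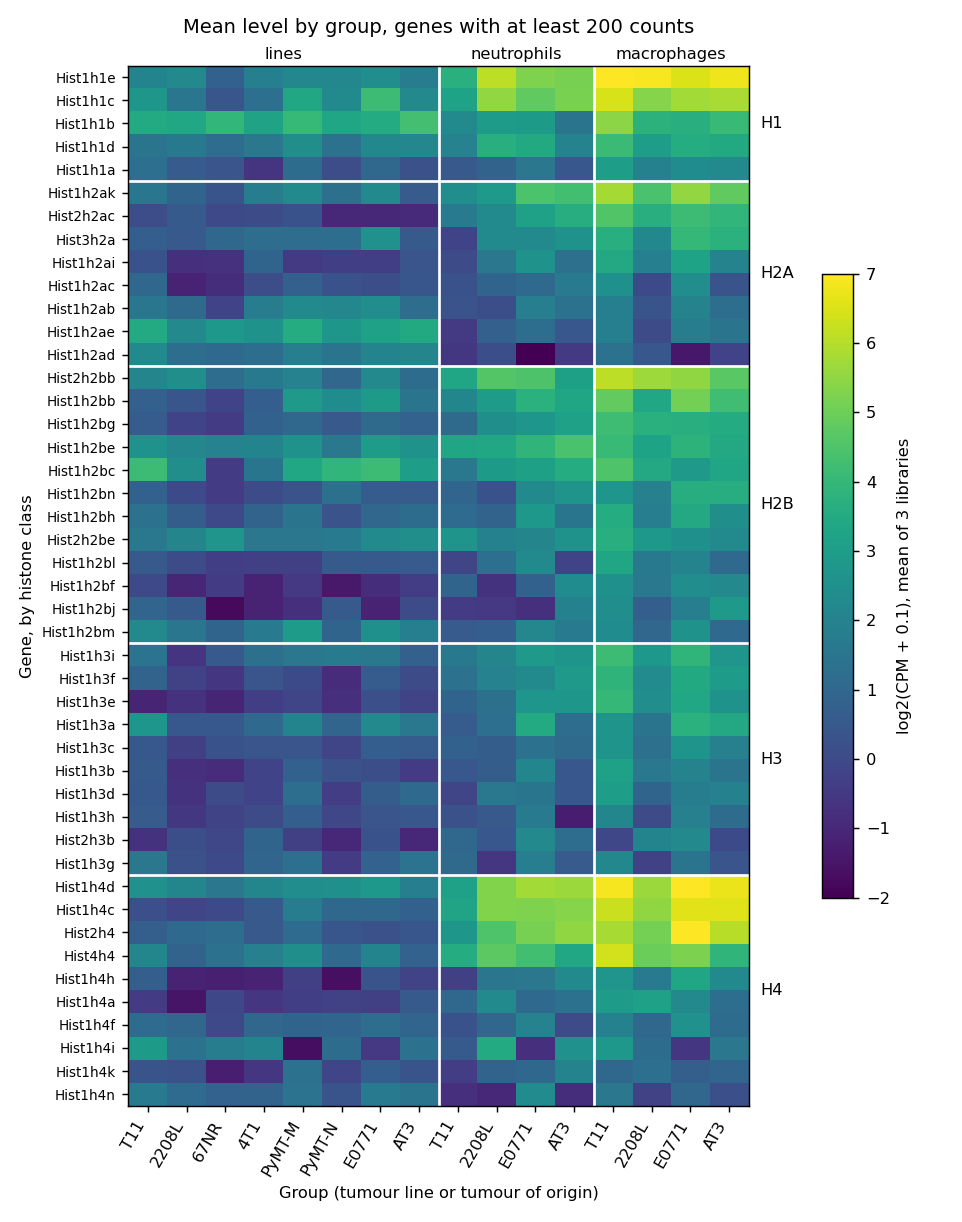
Mean level (log2 of CPM + 0.1, 3 libraries) of the 45 genes with at least 200 counts over all libraries, in rows by histone class, across the 16 groups in columns. Hist1h1e, Hist1h4d, Hist1h4c and Hist2h4 are among the brightest rows in macrophages and are darker in every line, while Hist1h2ae and Hist1h2ad are brighter in lines.

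Lines were compared with macrophages of the same 4 tumour models (T11, 2208L, E0771 and AT3), taking the mean of the 4 differences with edgeR's quasi-likelihood test. The p-values of all 21347 genes that passed the filter were adjusted together (Benjamini-Hochberg), and those under 0.05 count as calls. Of the 48 histone genes that passed the filter on low counts, 37 were lower in lines and 3 were higher, and the median log2 difference was -1.90. Over all genes tested 15.5% were called lower and 40.0% higher, with a median of 0.43. By class, 5 of 5 H1 genes tested, 6 of 10 H2A, 10 of 12 H2B, 9 of 10 H3 and 7 of 11 H4 genes were called lower, with medians from -2.70 (H4) to -1.63 (H2A). Without the T11 libraries 33 of 46 were called lower and 2 higher, against 3381 and 7267 of 20017 genes. The filter kept genes that were high in either cell type, and the other 20 histone genes were not tested.

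**Figure D3:**
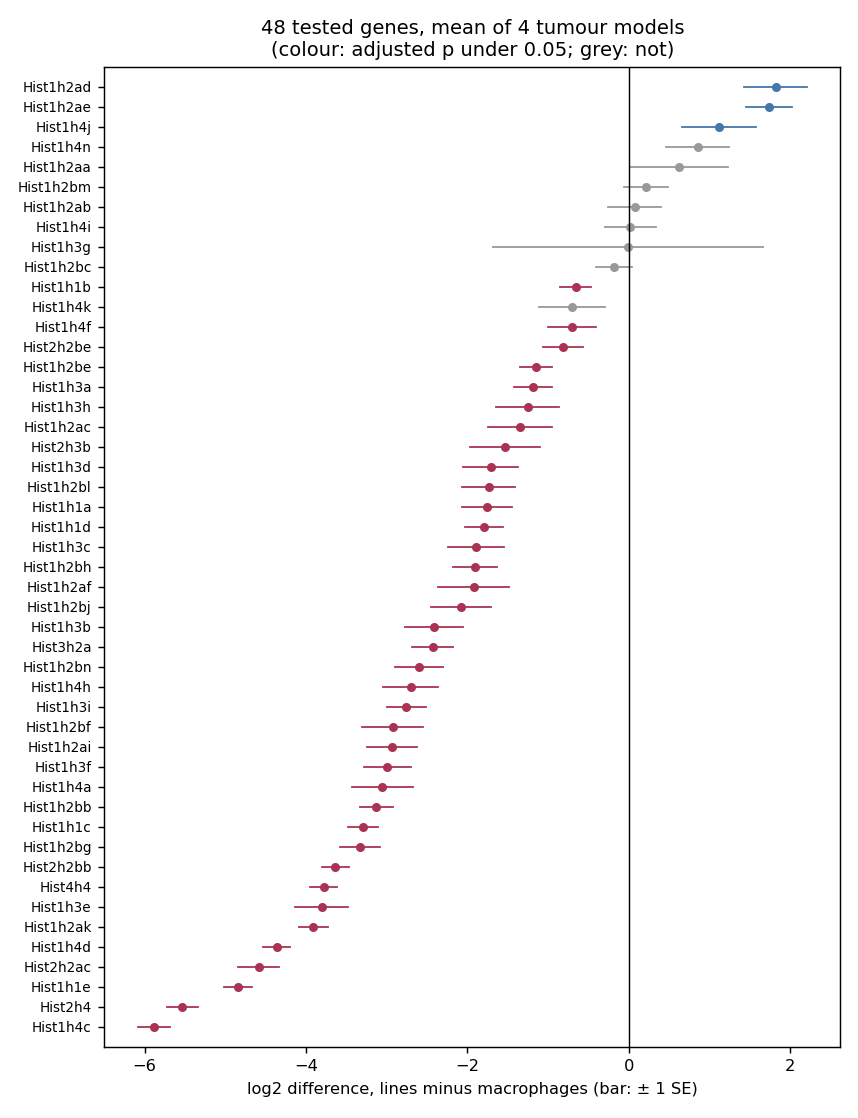
Log2 difference between lines and macrophages (x axis, mean of 4 tumour models, bar of 1 SE either way) for the 48 tested genes (y axis). Hist1h4c lies furthest to the left at -5.89, and Hist1h2ad, Hist1h2ae and Hist1h4j are the 3 coloured points to the right of 0.

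H4 genes and the H1 gene Hist1h1e were among those with the widest gaps. Hist1h4c (chr13:23697635-23698454, minus strand) was at 0.541 CPM at the lowest, 1.46 at the median and 4.28 at the highest in lines, and at 33.4, 79.0 and 121 CPM in macrophages. The groups did not come near each other in any tumour model, and the difference was -5.89 ± 0.20 (log2, SE; edgeR adjusted p = 1.2e-36). Hist2h4 (chr3:96261682-96263311, minus strand) is an H4 gene of another chromosome that shared 1.01% of the stretches over its whole GENCODE model. It was at 0.818, 1.32 and 3.11 CPM in lines and 28.97, 63.5 and 159 CPM in macrophages. The difference was -5.53 ± 0.19 (edgeR adjusted p = 9.0e-36). Hist1h1e (chr13:23620629-23622558, minus strand), which encodes a linker histone that sits where DNA enters and leaves the nucleosome, was at 0.934, 3.74 and 6.30 CPM in lines and 50.6, 125 and 161 CPM in macrophages. It differed by -4.84 ± 0.17 (edgeR adjusted p = 1.6e-35) and is the gene with the highest macrophage CPM of the set.

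Hist1h4d (chr13:23581598-23582735, plus strand) had a mean of 256 CPM per kilobase in macrophages against 11.9 in lines, the highest macrophage value of the set by RefSeq length (402 bases). By the longer GENCODE model (1138 bases) it was at 90.5 CPM per kilobase, below Hist2h2bb, Hist1h4c and Hist1h2ak, so the rank depends on the model. Its CPM ran from 1.86 over 4.50 to 10.0 in lines and from 35.9 over 105 to 172 in macrophages, and the difference was -4.36 ± 0.17 (edgeR adjusted p = 1.6e-33). Hist2h2ac, the H2A gene with the largest gap, was at 0 to 1.83 CPM in lines and 10.2 to 26.004 CPM in macrophages (-4.59 ± 0.26, edgeR adjusted p = 3.7e-25). The highest genes of the other classes per kilobase of RefSeq length went the same way: Hist1h2ak for H2A (-3.91 ± 0.18), Hist2h2bb for H2B (-3.64 ± 0.17) and Hist1h3i for H3 (-2.76 ± 0.24). Hist4h4, Hist1h1c and Hist3h2a differed by -3.78 ± 0.17, -3.29 ± 0.18 and -2.43 ± 0.25, and the edgeR adjusted p of these genes was at most 1.8e-13.

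Of 3 genes listed as polyadenylated in part, Hist1h1c was called lower in lines as given above, and the other 2 differed by less; no test compared the 3 with the rest of the set. Hist1h2bc ran in opposite directions in 2 of the tumour models. In E0771 the line was at 12.6, 22.6 and 18.4 CPM and macrophages at 9.43, 3.41 and 8.99 CPM, and in 2208L the line was at 5.86, 4.06 and 6.19 CPM and macrophages at 13.6, 7.74 and 10.5 CPM. The libraries did not overlap in either model, but did in T11 and AT3. The mean difference over the 4 models, -0.18 ± 0.22, did not pass (edgeR adjusted p = 0.50). With the size factors of DESeq2 it came to -0.62 and passed (adjusted p = 0.012). Hist2h2be was at 1.40, 3.97 and 7.46 CPM in lines and 0.555, 6.53 and 17.4 CPM in macrophages, and was called lower in lines by -0.81 ± 0.24 (edgeR adjusted p = 0.0033). Without the T11 libraries its difference was -0.44 and did not pass (adjusted p = 0.23). By presence of the stem-loop in the transcript model, 24 of 31 tested genes with it and 13 of 17 without it were called lower in lines, with medians of -2.07 and -1.74.

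Hist1h2ae, an H2A gene, was the exception among the well-expressed genes. It was at 4.04, 7.71 and 16.2 CPM in lines, at 0.407, 2.16 and 4.99 CPM in macrophages and at 0.441, 0.696 and 3.45 CPM in neutrophils. In all 4 tumour models every line library exceeded every library of either sorted type. The difference from macrophages was 1.74 ± 0.28 (edgeR adjusted p = 2.0e-07) and that from neutrophils 2.57 ± 0.31 (edgeR adjusted p = 3.9e-11). Hist1h2ad and Hist1h4j, named here after their values were seen, were the other members called higher in lines than in macrophages, by 1.82 ± 0.39 and 1.12 ± 0.46 (edgeR adjusted p = 4.1e-05 and 0.033).

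Hist1h2ae and Hist1h2ad each sit head to head with an H2B gene that went the other way. Mouse H2A and H2B genes often lie in such pairs, transcribed apart from 1 shared stretch. The start sites of Hist1h2ae (minus strand) and Hist1h2bg (plus strand) are 176 bases apart, and those of Hist1h2bf (minus strand) and Hist1h2ad (plus strand) 185 bases apart. The stretch between the first pair is shown because both genes use it in opposite directions; it was read 250 bases before to 50 after the start from RefSeq's table for GRCm38.p6, on the strand of Hist1h2bg. Capitals mark each TATA box (TATAAA), each CAAT box as the letters CCAAT, and the octamer ATTTGCAT, on either strand.
Hist1h2bg promoter, chr13:23571150-23571449: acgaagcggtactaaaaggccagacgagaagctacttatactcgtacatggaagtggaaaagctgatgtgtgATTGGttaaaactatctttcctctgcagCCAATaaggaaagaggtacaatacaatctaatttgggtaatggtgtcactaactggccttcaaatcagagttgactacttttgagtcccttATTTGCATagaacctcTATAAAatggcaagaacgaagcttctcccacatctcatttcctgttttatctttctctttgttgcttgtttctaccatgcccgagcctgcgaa

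In the first pair, Hist1h2bg (H2B) was at 0.414, 1.35 and 3.14 CPM in lines and 9.16, 13.8 and 22.2 CPM in macrophages, and was lower in lines (log2 difference -3.33 ± 0.25, edgeR adjusted p = 2.0e-19), while its partner Hist1h2ae was higher in lines. In the second pair, Hist1h2bf was at 0, 0.414 and 1.69 CPM in lines and 1.63, 3.76 and 9.43 CPM in macrophages (-2.93 ± 0.38, edgeR adjusted p = 4.4e-10), and Hist1h2ad was at 0.931, 2.92 and 5.66 CPM in lines and 0, 0.825 and 4.79 CPM in macrophages. Both pairs were picked after their values were seen, out of 14 head-to-head pairs. Of their stretches of 50 bases, Hist1h2ae shared 43.2%, Hist1h2bg 49.7%, Hist1h2ad 67.1% and Hist1h2bf 65.8% with other transcripts. The counts of these single genes are uncertain to that extent. GENCODE places a gene model on the opposite strand over Hist1h2ae and over Hist1h2ad. It does so over the other H2A genes of the set too, Hist1h2ak, Hist2h2ac and Hist3h2a among them. Whether the counting used strand is not given in the sources used here, so reads from the 2 strands cannot be told apart at these genes.

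**Figure D4:**
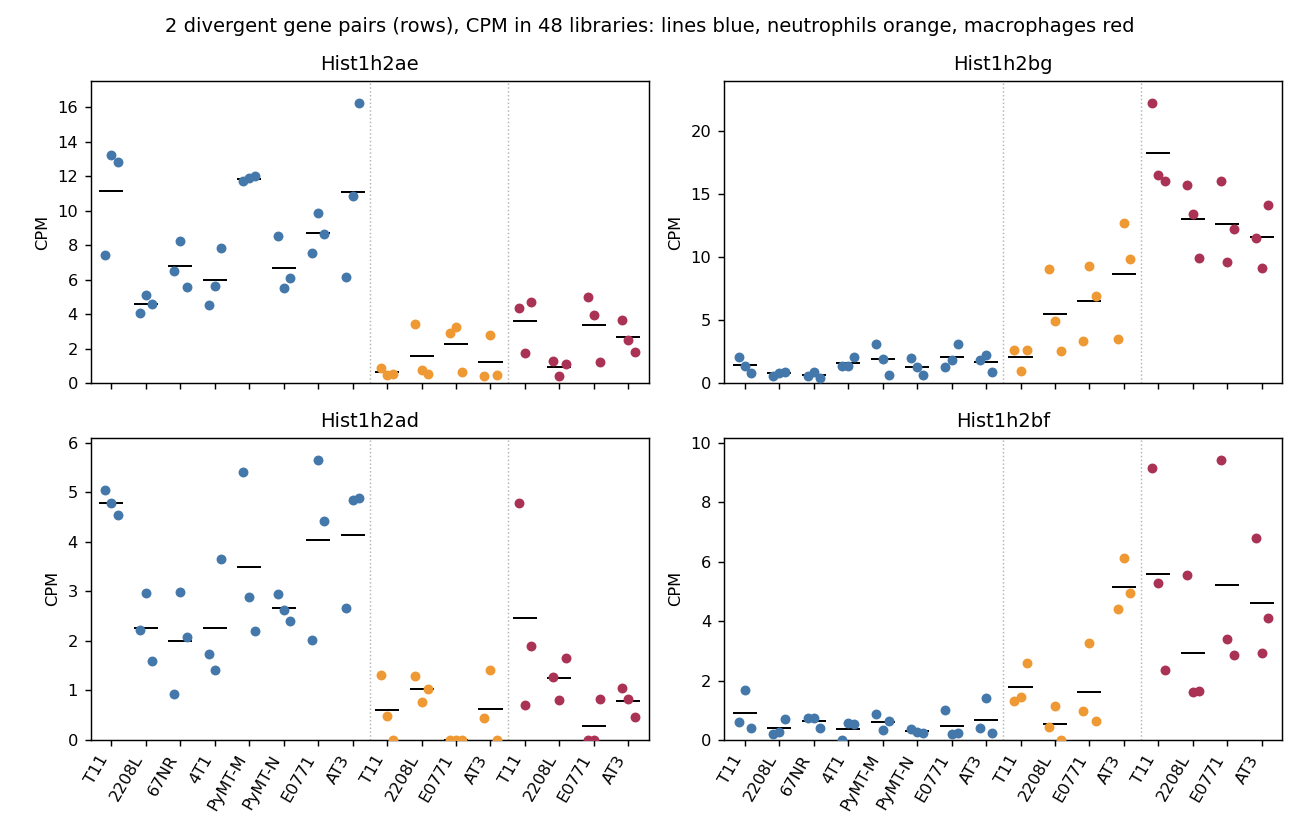
CPM of Hist1h2ae and Hist1h2bg (top) and of Hist1h2ad and Hist1h2bf (bottom) in each of the 48 libraries; points are libraries, bars means of 3, colours as in the title. The H2A genes on the left are high in lines, with Hist1h2ae at 4.04 CPM or more in every line library, and the H2B genes on the right are high in macrophages.

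Across the set, promoter windows of 300 bases were found in RefSeq's table for 62 of the 68 genes. CCAAT, on either strand, was present in 53 of them (85.5%) against 41.1% of 27025 genes, in all H1, H2A, H2B and H3 genes matched but in 3 of 12 H4 genes. TATAAA was present in 35 (56.5%) against 15.7%. The octamer ATTTGCAT was present in 14 (22.6%) against 1.97%, in 7 H2A and 7 H2B genes and in no gene of another class. Of the genes with the octamer, 11 were tested between lines and macrophages and 7 were called lower in lines; of those without it, 26 of 32 were.

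Most listed genes that work with the histone messages went the opposite way to the messages, as did many other genes. Over all 21347 genes tested, 40.0% were called higher in lines than in macrophages and 35.6% higher than in neutrophils. Of the 6653 genes at 10 times the receptor level or more, 4019 and 5067 were, with medians of 0.76 and 1.61. All 20 S-phase genes listed were higher in lines than in macrophages, with a median log2 difference of 2.52, and all 20 were higher than in neutrophils, with a median of 3.59. Their summed level was 2593 to 4871 CPM in lines, 334 to 901 in macrophages and 216 to 322 in neutrophils. Slbp, the stem-loop binding protein, was at 57.3, 81.8 and 103 CPM in lines (lowest, median, highest) and 7.21, 15.7 and 33.1 CPM in macrophages, higher in lines by 2.22 ± 0.13 (edgeR adjusted p = 5.2e-25). Of 15 genes for histone-message processing, 11 were higher in lines than in macrophages and 1 was lower, Mif4gd, a partner of Slbp in translation (-0.80, edgeR adjusted p = 4.9e-05). Eri1, the exonuclease that trims and degrades histone messages, led the list at 2.58 ± 0.12. Of 11 replacement histone genes, 10 were higher in lines, with a median of 1.1, and H2afx was lower (-0.69, edgeR adjusted p = 2.6e-05). Of 12 histone chaperones, 11 were higher, led by Nap1l1 at 3.72 ± 0.14, and Daxx was lower (-0.53, edgeR adjusted p = 0.00041).

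Other RNAs without poly(A) tails moved with the histone genes. Rmrp, the RNA of RNase MRP, averaged 3.57 CPM in lines, 39.2 in neutrophils and 119 in macrophages, and Rpph1, the RNA of RNase P, averaged 1.29, 187 and 408 CPM. They were chosen after their values were seen. Rn45s followed the same order. RNA was purified on a different column for sorted cells, and the lines came from culture, so cell type, growth in culture, dissociation and purification cannot be told apart in this comparison. The part of the share of RNAs without poly(A) tails in the histone differences was not tested.

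Against neutrophils of the same tumours the lines differed less clearly. Of the 48 tested histone genes 25 were lower in lines, where 48.7% of all 21347 genes were, and 7 were higher, against 35.6%. That share of lower calls is close to the share over all genes tested, and the medians were -0.86 for the histone genes and -0.57 for all genes. Against well-expressed genes the histone genes went the other way. Of the 6653 genes above the receptor level, 1137 were lower in lines and 5067 higher, with a median of 1.61. For the 38 histone genes among them the median was -1.14. The count of histone genes called lower in lines also moved with the scale. With factors taken from genes above the receptor level 42 of 48 histone genes were lower and 2 higher. Over all 21347 genes 15754 were lower and 3547 higher there, and the median of all genes shifted by -1.45. The widest gaps were again at Hist1h4c (0.541, 1.46 and 4.28 CPM in lines against 4.34, 35.1 and 65.8 CPM in neutrophils; -4.40 ± 0.21), Hist2h4 (-3.96 ± 0.22), Hist2h2ac (-3.14 ± 0.29), Hist1h1e (-2.99 ± 0.18) and Hist1h4d (-2.68 ± 0.18), each with an edgeR adjusted p of at most 2.3e-15. Hist1h1b, an H1 gene, was at 5.93, 11.8 and 30.2 CPM in lines and 1.32, 4.56 and 11.2 CPM in neutrophils and was higher in lines by 1.23 ± 0.23 (edgeR adjusted p = 1.8e-06). Hist1h2bc was called higher in lines by 0.59 ± 0.24 (edgeR adjusted p = 0.019), but its difference was -0.10 with the size factors of DESeq2 and -0.13 without the T11 libraries.

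Between the 2 sorted cell types, the histone genes were higher in macrophages. The test took the mean of the macrophage minus neutrophil differences in the 4 tumours. Of 42 tested histone genes 32 were called higher in macrophages and 0 lower, with a median log2 difference of 1.25. The filter passed 23 histone genes among neutrophils alone and 38 among macrophages alone, so part of the 42 passed through their macrophage counts, and the other 26 histone genes were not tested. With no filter 59 were tested, 34 called higher and 3 lower, against 6238 and 10280 of 23373 genes. Over all 20364 genes tested, 30.3% were called higher and 45.7% lower, with a median of -0.53. Among the 6594 genes at 10 times the receptor level or more, 4840 were called higher and 514 lower, with a median of 0.88. For the 36 histone genes among them the median was 1.27. Higher calls were thus common among well-expressed genes. All 5 tested H1 genes, 8 of 11 H2B, 8 of 10 H3, 7 of 10 H4 and 4 of 6 H2A genes were called higher. In the edgeR fit 0 were lower at an unadjusted p under 0.05 as well. DESeq2 called 29 higher and 4 lower, against 4448 and 12285 of 23373 genes.

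Much of that gap came from 1 tumour. The ratio of macrophages to neutrophils in summed level was 6.72 in T11, 1.40 in 2208L, 2.12 in E0771 and 1.73 in AT3, and the median over the 42 genes was 2.52, 0.42, 0.80 and 0.60 on the log2 scale. Without the T11 libraries 15 of 36 were called higher and 0 lower, against 4147 and 6164 of 17906 genes. The T11 neutrophil libraries also had the lowest Rn45s shares of the sorted cells, 26.8 to 42.9%, and receptor genes summing to 3518 to 4494 CPM against 1751 to 4229 CPM in the other neutrophils; the part of these in the result was not tested. Library sizes without Rn45s and Lars2 and no further factor shifted the median of all genes by -0.74. On that scale 15 of 42 were called higher and 1 lower, against 2720 and 13109 of 20364 genes.

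Hist1h1b and Hist1h1e, both H1 genes, had the largest mean differences between the sorted types. Hist1h1b differed by 1.91 ± 0.24 (edgeR adjusted p = 1.1e-09) and stood apart in 2 of the 4 tumours. Hist1h1e was at 20.4, 6.27 and 11.98 CPM in T11 neutrophils and 132, 156 and 161 CPM in T11 macrophages. In 2208L it was at 70.2, 90.7 and 47.5 CPM in neutrophils and 131, 107 and 124 CPM in macrophages. In E0771 it was at 37.3, 39.7 and 38.4 CPM against 126, 50.6 and 99.8 CPM, and in AT3 at 19.8, 53.1 and 33.1 CPM against 143, 102 and 81.7 CPM. Macrophages lay above neutrophils without overlap in all 4 tumours, and the mean difference of Hist1h1e was 1.87 ± 0.17 (edgeR adjusted p = 1.5e-13). Hist2h2bb also stood apart in all 4 tumours (1.71 ± 0.16, edgeR adjusted p = 4.5e-13). Hist3h2a, Hist1h4d and Hist1h2ak differed by 1.74 ± 0.28, 1.70 ± 0.16 and 1.70 ± 0.18 and stood apart in 3 of the 4 tumours. Hist1h1c (1.24 ± 0.19), Hist4h4 (1.20 ± 0.16) and Hist1h3i (1.14 ± 0.25) passed as well. With T11 left out Hist1h1c was at 0.45 (adjusted p = 0.071) and Hist1h3i at 0.54 (adjusted p = 0.11), and neither passed. Hist1h3i did not pass either with library sizes without Rn45s and Lars2 (0.41) or with factors from genes above the receptor level (0.24). Of the genes polyadenylated in part other than Hist1h1c, Hist1h2bc was called at 0.79 ± 0.27 (edgeR adjusted p = 0.0085), though at -0.04 without the T11 libraries, and Hist2h2be was not (0.55 ± 0.30, edgeR adjusted p = 0.088).

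**Figure D5:**
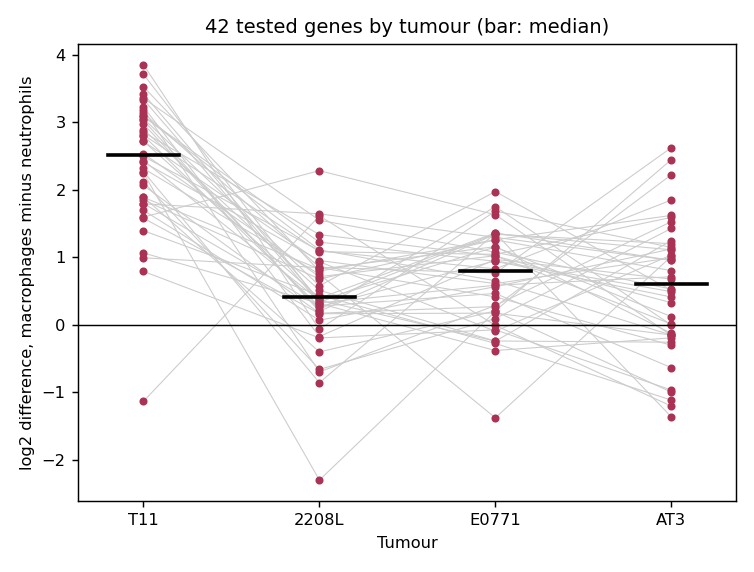
Log2 difference between macrophages and neutrophils (y axis) for each of the 42 tested genes in each tumour (x axis); grey lines join a gene, bars are medians. The median is 2.52 in T11 and 0.42, 0.80 and 0.60 in 2208L, E0771 and AT3.

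A test of whether the difference varied among the tumours called 23 of the 42 genes, against 27.5% of all genes. Hist1h4d was at 8.26, 6.27 and 11.98 CPM in T11 neutrophils and 142, 110 and 99.3 CPM in T11 macrophages, a log2 difference of 3.71, where 2208L gave 0.33, E0771 1.35 and AT3 1.11 (edgeR adjusted p = 1.5e-06). In the same order of tumours the differences were 3.23, -0.17, 0.97 and 0.68 for Hist1h1c and 3.85, -0.07, 1.69 and 1.15 for Hist3h2a. In each of these genes T11 gave the largest difference. Without the T11 libraries the test called 1 of 36 tested histone genes, against 689 of 17906 genes. With either of 2 other scalings (library sizes without Rn45s and Lars2, or factors from genes above the receptor level) it called 11 of 42. Over all 20364 genes those scalings called 6066 and 7111. In each of these settings the share of histone genes called was no higher than that of all genes.

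The S-phase genes were likewise higher in macrophages than in neutrophils, 14 of 20 called higher and 1 lower with a median of 0.82. For this list and those below, 30.3% of all 20364 genes tested were called higher. Of the 6594 genes at 10 times the receptor level or more, 4840 were, with a median of 0.88. The S-phase median was no higher than that. Mki67, the proliferation marker, was at 34.7, 54.3 and 183 CPM in neutrophils (lowest, median, highest) and 85.8, 384 and 796 CPM in macrophages, and differed by 2.41 ± 0.16 (edgeR adjusted p = 4.4e-18). Of the 11 replacement histones, 10 were tested and 8 were higher in macrophages, among them H2afz (2.33 ± 0.17), and H2afy2 was lower (-1.69 ± 0.40). Of the 12 chaperones 10 were higher and of the 15 processing genes 11 were higher and Zfp473 was lower (-1.44 ± 0.30, edgeR adjusted p = 5.6e-05).

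Among neutrophils of the 4 tumours 18 of 23 tested histone genes differed, against 31.4% of 18158 genes. Of the 6485 genes at 10 times the receptor level or more, 3242 differed. T11 was the lowest group for most of the histone genes tested. Its 3 libraries were also the shallowest, with 669862 to 1084947 counts, and had the lowest summed neutrophil markers, 630 to 1895 CPM against 1943 or more in the others. The part of depth and of these markers in the differences among neutrophils was not tested. Hist2h4 was at 11.3, 2.41 and 6.25 CPM in T11 neutrophils, 22.4, 26.7 and 19.6 in 2208L, 32.4, 37.4 and 37.1 in E0771 and 23.8, 67.7 and 45.0 in AT3 (edgeR adjusted p = 1.1e-05). Hist1h4i had another order: it was at 2.61, 0.483 and 1.04 CPM in T11, 9.48, 15.63 and 8.26 in 2208L, 0.968, 0.467 and 0 in E0771 and 2.20, 10.8 and 4.45 in AT3 (edgeR adjusted p = 3.6e-05). The 2208L libraries were the highest as a group for Hist1h1e, Hist1h1c, Hist2h2bb and Hist4h4. They also had the highest summed tumour epithelium markers, 202 to 215 CPM against 30.6 to 48.96 CPM in the other neutrophils, and Mki67 at 166 to 183 CPM against 34.7 to 67.7 CPM. Their summed macrophage markers were 1292 to 1903 CPM, where AT3 neutrophils had 682 to 1294 CPM, E0771 360.5 to 385 CPM and T11 137 to 305 CPM. The part of these markers in the result was not tested. Without the T11 libraries 10 of 25 tested histone genes were called, against 2390 of 16039 genes. In that edgeR fit Hist1h4d, Hist1h1e and Hist1h1c were not called (adjusted p = 0.38, 0.075 and 0.40).

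Among macrophages 15 of 38 tested histone genes differed, against 35.5% of 14715 genes, a share near that background. Hist4h4, the lone H4 gene of chromosome 6, varied most. It was at 114, 70.4 and 63.8 CPM in T11 macrophages, 40.5, 28.9 and 25.98 in 2208L, 41.0, 26.2 and 45.8 in E0771 and 14.2, 14.6 and 15.1 in AT3 (edgeR adjusted p = 1.7e-06), so T11 lay above and AT3 below all others. Hist2h4, an H4 gene for the same protein, had a different order, with 76.3, 39.8 and 52.0 CPM in T11, 28.97, 39.5 and 34.3 in 2208L, 135, 127 and 159 in E0771 and 38.8, 75.0 and 80.7 in AT3 (edgeR adjusted p = 2.2e-06). E0771 stood above the rest there without overlap. Hist1h1b was highest in T11, at 47.1, 34.9 and 46.3 CPM (edgeR adjusted p = 0.0025), and Hist1h2bb was highest in E0771, at 34.9, 35.8 and 32.7 CPM (edgeR adjusted p = 0.0013). The fit of all 48 libraries called 31 of 48 tested histone genes among macrophages, against 11961 of 21628 genes.

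Among the 8 lines 22 of 29 tested histone genes differed, against 89.1% of 18348 genes, a share below that background. The summed level ran from 86.5 ± 3.31 CPM in 67NR to 179 ± 32.01 CPM in E0771. Hist1h2bc had the widest range of line means, 4.62 on the scale of log2(CPM + 0.1), close to 4.57 for Hist1h4i. Hist1h2bc was at 1.12, 0.374 and 0.414 CPM in 67NR and 17.5, 19.4 and 16.9 CPM in T11 (edgeR adjusted p = 2.8e-25). Hist1h1c, an H1 gene, was at 1.30, 0.934 and 1.45 CPM in 67NR, 13.1, 8.35 and 9.46 in PyMT-M and 17.6, 17.3 and 18.1 in E0771 (edgeR adjusted p = 2.5e-23). Hist1h2ae ran from 4.04, 5.14 and 4.58 CPM in 2208L to 11.7, 11.9 and 11.98 CPM in PyMT-M (edgeR adjusted p = 1.5e-05).

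Hist1h4i, named among lines after its values were seen, was low in 2 lines. It was at 0, 0.321 and 0.315 CPM in PyMT-M and 0.252, 0.912 and 0.663 CPM in E0771, and at 8.02, 9.01 and 4.95 CPM in T11 (edgeR adjusted p = 1.1e-12). The sorted cells of E0771 tumours were low as well, at most 0.968 CPM in neutrophils and 1.14 CPM in macrophages. The AT3 line, also of C57BL/6 label, was at 2.05, 3.71 and 1.78 CPM, and AT3 neutrophils and macrophages were at 1.67 CPM or more. Hist1h4i shared 28.9% of its stretches of 50 bases with other transcripts.

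Lines were compared in 4 pairs, in the fit of all 24 line libraries. In 2208L against T11, 9 of 29 tested histone genes were lower and 0 higher, against 18.7% and 22.7% of all genes. With edgeR at an unadjusted p under 0.05 and with DESeq2, 0 were higher as well. Hist1h2bc fell from 17.5, 19.4 and 16.9 CPM in T11 to 5.86, 4.06 and 6.19 CPM in 2208L (-1.69 ± 0.24, edgeR adjusted p = 5.05e-09). Hist1h2ae (-1.24 ± 0.27) and Hist1h1c (-1.24 ± 0.31) were lower too, as were all 3 tested H3 genes, with Hist1h3i at -2.16 ± 0.57 (edgeR adjusted p = 0.0010). The S-phase list had no such direction, with 8 of 20 genes higher and 5 lower.

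In AT3 against E0771, 9 of 29 tested histone genes were lower and 2 higher, against 25.3% and 20.4% of all genes. The share of lower calls was near that background. Hist1h1c was at 3.27, 5.28 and 5.33 CPM in AT3 and 17.6, 17.3 and 18.1 CPM in E0771 (-1.89 ± 0.21, edgeR adjusted p = 1.4e-12). Hist3h2a was at 1.02, 2.14 and 0.888 CPM in AT3 and 5.04, 6.57 and 5.75 CPM in E0771 (-1.97 ± 0.38, edgeR adjusted p = 6.5e-06). Hist1h2ak (-1.73 ± 0.36), Hist1h2bc (-1.18 ± 0.20) and Hist4h4 (-1.24 ± 0.37) were lower as well, and Hist1h1b and Hist1h4i were the 2 called higher, by 0.78 ± 0.21 and 2.01 ± 0.50. Of the S-phase list, 14 of 20 genes were higher in AT3 and 4 lower. The 2 lines were grown in different media.

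In PyMT-N against PyMT-M, 10 of 29 tested histone genes were lower and 2 higher, against 20.1% and 24.5% of all genes. Hist1h2ae was at 8.50, 5.49 and 6.09 CPM in PyMT-N and 11.7, 11.9 and 11.98 CPM in PyMT-M (-0.70 ± 0.24, edgeR adjusted p = 0.013). Hist1h1c (-0.99 ± 0.25), Hist4h4 (-1.26 ± 0.37) and Hist1h1b (-0.69 ± 0.25) were lower, and so were 13 of 20 S-phase genes, with 3 higher. Hist1h2bc was called higher, by 0.63 ± 0.22 (edgeR adjusted p = 0.014), but not with library sizes without Rn45s and Lars2 (0.35, adjusted p = 0.21) or in the fit of all 48 libraries (0.53, adjusted p = 0.37). The count of lower genes was 6 without library 1 of PyMT-M, 6 without library 3 of PyMT-N, and 6 with DESeq2.

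In 4T1 against 67NR, 6 of 29 tested histone genes were higher and 2 lower, against 23.6% and 24.3% of all genes. Neither share exceeded that background. Hist1h2bc was at 1.39, 1.96 and 4.71 CPM in 4T1 and 1.12, 0.374 and 0.414 CPM in 67NR (2.15 ± 0.53, edgeR adjusted p = 0.00042). Hist1h2ak (1.57 ± 0.44) and Hist1h1e (1.22 ± 0.41) were higher and Hist2h2be was lower (-1.08 ± 0.32, edgeR adjusted p = 0.0033), though not in the fit of all 48 libraries (adjusted p = 0.058). The third 4T1 library had a summed level of 147 CPM where the other two had 91.0 and 82.0 CPM, and without it 2 genes were called higher. Of the S-phase genes, 10 of 20 were lower in 4T1 and 2 higher.

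Members known from testis were at or near the stray level. Hist1h1t, Hist1h2aa and Hist1h2ba, the H1, H2A and H2B genes of spermatocytes, had medians of 0.211, 0.428 and 0.345 CPM in lines, 0.438, 1.28 and 1.04 CPM in neutrophils and 0, 0.408 and 0 CPM in macrophages. Per kilobase of RefSeq length they stood at 1.06 to 3.51 times the mean of the receptor genes in each of the 3 kinds of cell. Of the 3, Hist1h2aa alone passed the filter, in the comparisons of lines with sorted cells, and it was not called there. Against neutrophils its difference of -0.77 (edgeR adjusted p = 0.18) passed with other scalings, at -1.44 with the size factors of DESeq2 (adjusted p = 0.016), -1.81 with library sizes without Rn45s and Lars2 (0.0035) and -2.15 with factors from genes above the receptor level (0.00089), and at -1.51 in DESeq2 itself (0.0098).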

How the data were processed

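RNA was measured in 48 libraries of 16 groups of 3. The authors deposited whole-number counts per gene. Per the submitters' processing notes, bcl2fastq 2.17 and STAR 2.4.2a were used with build mm10; the counting program, its annotation, and its handling of strand and of reads with several places are not given in the sources used here. Columns were matched to samples by name; the PyMT-N column has another suffix and was matched because no other line was left. There were 0 value columns of no sample.

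From the deposited counts, genes were filtered by group with filterByExpr (at least 10 counts, 15 in total), scaled by TMM and tested with edgeR 4.0.16 (quasi-likelihood, Benjamini-Hochberg adjustment over all genes tested, called under 0.05) in 5 fits: lines, neutrophils, macrophages, both sorted types, and the 36 libraries of 4 tumour models. Printed levels are CPM (counts scaled to an equal library total) with TMM factors over all 48 libraries; Rn45s counts stay in the library size, and the factors offset them. A pseudocount of 0.1 CPM was used in log2 differences by tumour and ranges. Alternatives used DESeq2 1.42.0 (R 4.3.3), other factors and filters, and left-out libraries. The pipeline was tested on simulated data. Libraries of a group differed by more than sampling noise (chi-square per gene of 1.31 to 19.0 over 48 pairs).

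Named genes were Hist1h1c, Hist1h2bc, Hist2h2be, Hist4h4, Hist3h2a, the 3 testis genes, the highest member of each class per length, and up to 5 called members per direction with the largest difference, an average log2 CPM no lower than 3, and no overlap (in 3 of 4 tumours for means), with up to 3 genes of each other list. The members and lists were chosen with earlier results of these data known. Sequences and motifs were read from GENCODE M21 and RefSeq GRCm38.p6; all 68 symbols matched GENCODE. Lengths for levels per kilobase were those of RefSeq for 63 histone genes and of GENCODE exons for the other 5 and for the receptor genes.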

Additional observations from a re-analysis of the deposited data

Results flagged for a closer look

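The macrophage minus neutrophil difference varied among the 4 tumours, by an interaction test over all genes, in 23 of 42 tested histone genes, against 27.5% of all genes. The edgeR adjusted p was 0.0030 for Hist3h2a, 3.0e-05 for Hist1h1c, 1.5e-06 for Hist1h4d, 0.0039 for Hist1h2bc and 0.00014 for Hist1h2ak. It was 3.5e-05 for Hist4h4, 0.00010 for Hist1h1e, 0.0050 for Hist2h2bb and 0.025 for Hist1h3i. In all 9 of these genes the largest difference was in T11, where it ran from 2.54 for Hist1h3i to 3.85 for Hist3h2a on the log2 scale. Without the T11 libraries 1 of 36 histone genes was called, against 689 of 17906 genes. Library sizes without Rn45s and Lars2 gave 11 of 42, against 6066 of 20364 genes. Factors from genes above the receptor level gave 11 of 42, against 7111 of 20364. Hist1h3i did not pass with the size factors of DESeq2 (adjusted p = 0.074), those library sizes (0.11), DESeq2 (0.055), those factors (0.14) or the replicate block within each tumour (0.054).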

How the results depend on the processing

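For 126 results on named histone genes, 1044 alternatives under other settings were read, with all groups kept or T11 left out. Of these 965 kept the call and, where called, its direction, 52 lost the call, 20 gained it and 7 reversed. Among the 965 are 113 that could not move, because members above the receptor level were only picked out of the main fit. With 1 library or replicate number left out, 0 reversed. All reversals were at Hist1h2bc. Macrophages against neutrophils gave -0.076 with TMM factors from genes above the receptor level and -0.041 without T11; lines against neutrophils gave -0.10 with DESeq2 size factors, -0.48 with library sizes without Rn45s and Lars2, -0.10 with DESeq2, -0.83 with factors from genes above the receptor level and -0.13 without T11. The factors from genes above the receptor level, the fits without T11 and the replicate block within each tumour were chosen after seeing the data. The cause of each move below was not tested.

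Library sizes without Rn45s and Lars2 gave 1 higher in PyMT-N, 1 lower in 4T1, 15 higher and 1 lower in macrophages than neutrophils, 11 varying by tumour, and 2 higher and 40 lower in lines than neutrophils. DESeq2 gave 6 lower in PyMT-N, 1 lower in 4T1, 1 higher in AT3, 4 lower in macrophages than neutrophils, and 3 higher and 40 lower in lines than neutrophils; its size factors in edgeR gave 3 higher there. Factors from genes above the receptor level gave 1 lower in 4T1, 12 higher and 3 lower in macrophages than neutrophils, 11 varying by tumour, and 2 higher and 42 lower in lines than neutrophils. With members above the receptor level only, 1 was lower in 4T1 and 1 higher in lines than macrophages. With no filter, 3 were lower in macrophages than neutrophils. One fit of all 48 libraries gave 1 higher and 4 lower in PyMT-N, 3 higher and 0 lower in 4T1, 1 higher in AT3, 31 among macrophages and 1 lower in macrophages than neutrophils. Without T11, 10 were called among neutrophils, 15 higher in macrophages than neutrophils, 1 varying by tumour and 4 higher in lines than neutrophils. Calls over all genes moved as well. Lower in lines than neutrophils were 14562 of 21347 genes with those library sizes, 15754 with those factors and 14213 of 23427 with DESeq2. Higher in macrophages than neutrophils were 2082 of 20364 with those factors. The fit of all 48 libraries called 11961 of 21628 among macrophages.

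The log2 ratio of summed levels, 1.28 for macrophages over neutrophils, was 0.62 with library sizes without Rn45s and Lars2. For lines over macrophages (-2.54) it was -3.15 with DESeq2 size factors and -3.03 with those library sizes; for lines over neutrophils (-1.26) it was -2.04 and -2.41.

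With 1 library left out, counts ran from 22 to 29 among lines, 1 to 2 higher and 6 to 11 lower in PyMT-N, 2 to 6 higher and 0 to 2 lower in 4T1, 7 to 11 lower in 2208L, 1 to 3 higher and 7 to 11 lower in AT3, 17 to 24 among neutrophils and 10 to 17 among macrophages. They ran from 30 to 34 higher in macrophages than neutrophils and 18 to 25 varying by tumour. PyMT-N had 1 higher without PyMT-M library 3 or PyMT-N library 1; 4T1 had 1 lower without 4T1 library 1 or 67NR library 2 and 0 without 4T1 library 2; AT3 had 1 higher without AT3 library 3. With each replicate number left out of the 36 libraries, 2 to 3 were higher and 34 to 36 lower in lines than macrophages, and 4 to 6 higher (4 without number 3) and 23 to 25 lower than in neutrophils. The ratios ran from 1.15 to 1.49, -2.72 to -2.35 and -1.35 to -1.19.

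Same-numbered libraries had correlations of -0.11 to 0.24 in their deviations, 2 of 24 over 0.1, and 14 of 48 libraries matched best with their own number, so the numbers were not taken as a pairing. With the replicate block, 32 were higher in macrophages than neutrophils, 37 lower in lines than macrophages, 25 lower in lines than neutrophils, 17 differed among neutrophils and 13 among macrophages. With the replicate block within each tumour, after the matching numbers in the column names, 30 were higher and 0 lower in macrophages than neutrophils and 17 varied by tumour.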
